A study of Mus musculus with 8 samples.

Results

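The release of transcription from DRB was followed in male mouse embryonic stem cells (ESCs) that carried conditional knockout alleles of Ythdc1 (Ythdc1 cKO) and had been given the solvent DMSO, so that Ythdc1 was left in place. Both groups had 4 days of DMSO and then 100 μM DRB for 3 h. DRB was washed out, and 1 mM 4-thiouridine (4sU) was present for 0 min in one group and for 8 min in the other before RNA was extracted and 4sU RNA was purified. Of the 8 libraries of the series, these 4 DMSO libraries (2 at 0 min, 2 at 8 min) were compared, over all 38911 table rows that are not spike-ins, of 38971 rows in all. The other 4 libraries came from cells given 4-hydroxytamoxifen (4OHT, 1 μg/ml), the agent used to delete the gene, and served only for a comparison at the end. The driver of recombination is not given in the sources used here. Cells were grown without feeder cells in serum and LIF. The sample titles name ESC#1 at 0 min and ESC#2 at 8 min, and do not say what that number marks. Both numbers occur in the column names of each time, so time and the ESC number of the titles cannot be told apart. Libraries are called number 1 and number 2 after the columns. Nothing says that the 2 libraries of a group came from separate cultures, so the p-values speak of the spread among these 4 libraries alone, and that spread may be technical.

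DRB inhibits CDK9, the kinase of P-TEFb, which RNA polymerase II (Pol II) needs to leave the pause site just inside a gene. During DRB, polymerases already past that site run off the gene and no new ones follow. Washout releases a wave of Pol II that moves from the starts of genes inward, and 4sU given from that moment marks RNA made in the wave. RNA in the 0 min libraries had no labelling time, and what share of it was made before DRB was not tested.

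Recovered reads numbered 61.4 M and 46.3 M at 0 min and 112 M and 93.1 M at 8 min (M, mega). The predicted noncoding transcript Gm26917 held 27.7% and 25.6% of reads at 0 min and 3.92% and 3.70% at 8 min. Spike-in RNAs held 0.120% and 0.618% of reads at 0 min and 0.0271% and 0.0674% at 8 min, so the 2 libraries of a group differed in spike-in share. The libraries of a group correlated at 0.934 (0 min) and 0.991 (8 min) across features, and those of different groups at 0.659 to 0.672. All 8 fixed ESC markers were above the filter, with summed rescaled signals of 5642 and 5689 at 0 min and 2812 and 2656 at 8 min. The 8 fibroblast markers summed to between 23.5 and 62.5 in each library, with 2 at 0 in each 0 min library, and the other lineage lists summed to between 13.6 and 53.2. The part of other cells in any result was not tested.

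Release split the transcriptome into RNAs that gained and RNAs that lost signal relative to the rest. After median-ratio rescaling, 17479 features passed the filter (a rescaled signal of at least 10 in 2 of 4 libraries), and 6474 of them (37.0%) were called higher and 4356 (24.9%) lower at 8 min (limma, Benjamini-Hochberg adjusted p under 0.05). The median log2 change was 0.30, with quartiles of −0.89 and 1.45, and this is the background for every count below. In 8545 features (48.9%) both 8 min values lay above both 0 min values, and in 6144 (35.2%) both lay below. The scale decides how many features fell: with the deposited scaling, 9202 were called higher and 365 lower around a median of 1.38, and with spike-in scaling 5240 and 0 around 3.10. With scaling by total signal without Gm26917 the split was 5867 and 4868 (median 0.15), with edgeR and TMM on recovered reads 5108 and 5261, with quantile normalization 5317 and 5261, and with size factors from filtered features only 5325 and 5492. A fall is therefore a fitted change below 0 on the median-ratio scale, where the median tested feature lies at 0.30. It is not known whether RNAs that fell on this scale fell in amount per cell. In bulk RNA, fewer cells with an RNA and less RNA per cell cannot be told apart either. Without single 8 min libraries the counts were lower, with 4082 higher and 2098 lower without number 1 and 3830 and 1895 without number 2; they were 8078 and 5866 without 0 min number 1 and 8384 and 5947 without 0 min number 2.

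The scalings other than quantile normalization shift all features of a library by nearly the same amount, so which side of the median feature a feature lies on is largely fixed, while its call is not. Of the 60 named features called lower, 57 were measured on the deposited scale and 16 of these were still called lower there. On the spike-in scale none of 59 was called lower and 6 kept a negative fitted change.

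**Figure D1:**
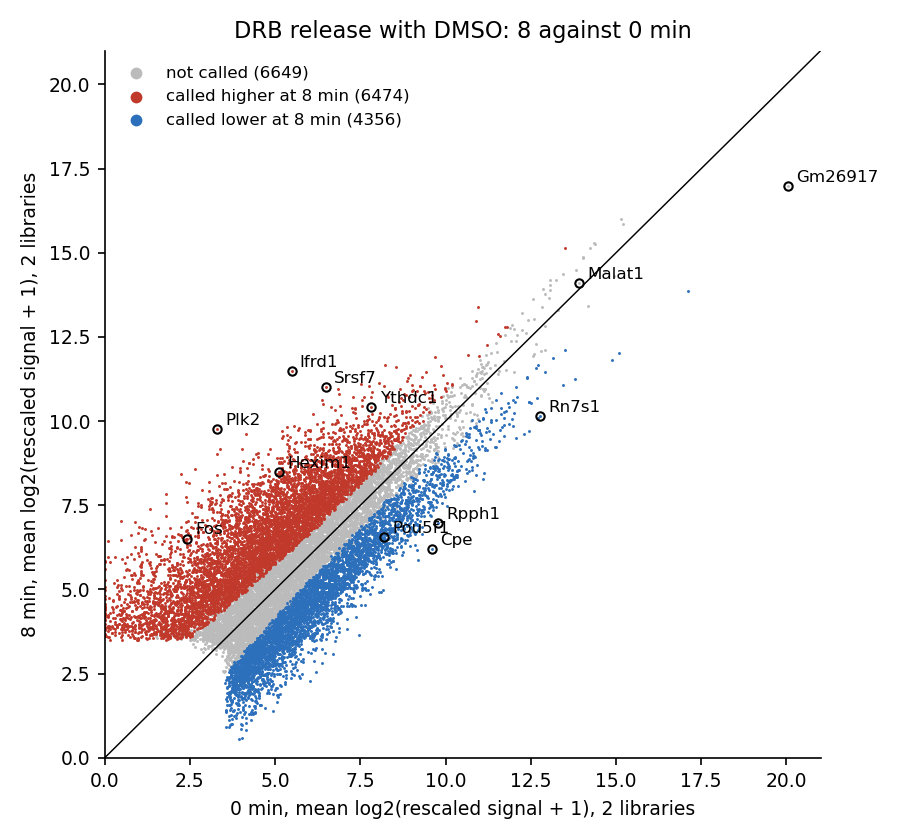
Mean log2(rescaled signal + 1) of each of the 17479 features in the 2 libraries of 0 min (x axis) and of 8 min (y axis), with features called higher in red, lower in blue and not called in grey, and the line of equality in black. Plk2 and Ifrd1 lie far above the line, Malat1 on it, and Cpe, Rpph1 and Rn7s1 below it; on the deposited and spike-in scales the whole cloud shifts upward relative to the line.

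Among features with a mean rescaled signal of at least 100, Plk2 made the largest rise. It encodes polo-like kinase 2, an immediate early and p53-induced kinase (gene ID 20620; GRCm38.p6 chromosome 13, 110395044 to 110400844, 5.80 kb). Its rescaled signal was 15.6 and 4.79 at 0 min and 859 and 882 at 8 min, a log2 change of 6.47 ± 0.47 (SE; limma adjusted p = 0.000399). The groups were far apart, at 10.2 ± 7.66 and 871 ± 16.9 (SD, n = 2). Ifrd1, an interferon-related regulator of transcription, went from 42.5 and 44.9 to 2645 and 3094 (limma adjusted p = 0.000338), with the pairs of values close together at each time. Rnf103, a ubiquitin ligase of the endoplasmic reticulum, went from 5.51 and 2.48 to 331 and 358 (6.18). Eny2, a subunit shared by the SAGA and TREX-2 complexes, went from 7.74 and 3.55 to 366 and 403 (5.93). The other 8 genes of largest rise by the rule were Fam72a (6.02), Pdhx, a subunit of pyruvate dehydrogenase (5.81), Fam204a (5.70), Rnpc3, a protein of the minor spliceosome (5.47), Tmem5 (5.15), Gorab (5.11), Tyw5 (4.92) and the mitochondrial folate carrier Slc25a32 (4.87). Their annotated lengths ran from 5.80 kb for Plk2 to 52.5 kb for Pdhx. Rnf103, Eny2, Fam72a and Slc25a32 were under 10 in both 0 min libraries. They passed the filter only through the 8 min libraries, so the direction of their change was nearly fixed.

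Immediate early genes, which are switched on without new protein synthesis, rose in part. Of 46 tested members 25 were called higher and 4 lower, with a median of 1.11 against 0.30 for all features; without 8 min number 1 or number 2 it was 14 higher and 0 lower each time. Fos (chromosome 12, 85473890 to 85477274), a subunit of the AP-1 factor, had 1.84 and 8.95 at 0 min and 94.9 and 85.7 at 8 min (log2 change 4.10 ± 0.57; adjusted p = 0.00164). Its 0 min values differed several-fold from each other, and both 8 min values lay well above them. Both 0 min values were under 10, so Fos passed the filter only through the 8 min libraries and its rise was nearly fixed. The antiproliferative gene Btg1 went from 41.7 and 79.9 to 807 and 818 (3.79), and the stress gene Gadd45a from 6.17 and 10.3 to 95.0 and 95.3 (3.42). Not every classic member moved. Ier2 had 472 and 425 at 0 min and 554 and 486 at 8 min (adjusted p = 0.449), and Junb 116 and 96.9 against 155 and 158 (adjusted p = 0.0749). Egr1 went from 239 and 229 to 648 and 585 (1.39; adjusted p = 0.00252), a call lost without 8 min number 1 (adjusted p = 0.0607). Myc (1.19), Jun (0.92) and Klf4 (1.03) were called higher in the full fit but not without either 8 min library, with adjusted p of 0.193 and 0.160 for Myc, 0.243 and 0.299 for Jun, and 0.173 and 0.179 for Klf4. Trib1, a pseudokinase, was called lower (−0.97; adjusted p = 0.0443), and that call was lost too (adjusted p = 0.216 without number 1, 0.391 without number 2).

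The 250 bases before the annotated starts of Plk2, Fos and Hexim1 are shown because these genes head the immediate early and pausing lists. They are from RefSeq (GRCm38.p6, all on the plus strand): chr13:110394794-110395043 for Plk2, chr12:85473640-85473889 for Fos and chr11:103116075-103116324 for Hexim1. Capitals mark matches on either strand to the TATA box TATAAA, the CCAAT box, the GC box GGGCGG, the CRE motif TGACGTCA, the AP-1 motif TGAGTCA, the E-box CACGTG or the serum response element.
Plk2: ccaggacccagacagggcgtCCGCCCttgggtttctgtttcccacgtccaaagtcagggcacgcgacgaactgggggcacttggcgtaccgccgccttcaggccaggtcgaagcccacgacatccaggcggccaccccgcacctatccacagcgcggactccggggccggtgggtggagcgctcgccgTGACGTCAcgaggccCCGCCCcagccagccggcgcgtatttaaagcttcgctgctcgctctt
Fos: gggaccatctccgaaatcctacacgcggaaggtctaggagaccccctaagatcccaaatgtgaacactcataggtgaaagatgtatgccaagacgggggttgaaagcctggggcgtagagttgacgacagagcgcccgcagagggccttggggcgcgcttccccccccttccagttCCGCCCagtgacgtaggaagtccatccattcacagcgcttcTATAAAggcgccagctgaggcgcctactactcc
Hexim1: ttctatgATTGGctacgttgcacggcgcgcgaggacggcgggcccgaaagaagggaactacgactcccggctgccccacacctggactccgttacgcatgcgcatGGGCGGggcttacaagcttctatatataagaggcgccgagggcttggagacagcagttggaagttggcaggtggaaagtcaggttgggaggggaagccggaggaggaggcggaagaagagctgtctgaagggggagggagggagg
Plk2 holds TGACGTCA 62 to 55 bases before the start and GGGCGG on the other strand at 47 to 42 and at 230 to 225 bases. Fos holds TATAAA 33 to 28 bases before its start and GGGCGG on the other strand at 74 to 69. Hexim1 holds GGGCGG 145 to 140 bases before its start and CCAAT on the other strand at 243 to 239. Among promoters of all 9898 tested protein-coding genes matched by symbol, 2.81% hold TGACGTCA, 6.57% TATAAA, 58.5% GGGCGG and 36.9% CCAAT. A match is a description of the letters only.

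Over these promoters, CCAAT was in 1638 of 4100 genes called higher and 566 of 1789 called lower (31.6% of these), and CACGTG in 8.68% and 6.48%. GGGCGG was in 58.8% and 52.3%, and TGACGTCA in 3.24% and 2.01%. TATAAA went the other way, with 6.51% of genes called higher and 9.45% of genes called lower, as did TGAGTCA (2.63% and 3.80%) and the serum response element (1.00% and 1.34%). Among the 4009 genes not called, the shares were 36.2% for CCAAT, 8.53% for CACGTG, 60.9% for GGGCGG, 2.72% for TGACGTCA, 5.34% for TATAAA, 2.79% for TGAGTCA and 1.47% for the serum response element, so GGGCGG and the serum response element were more frequent there than in either called group. Over all 9898 promoters CACGTG was in 8.22%, TGAGTCA in 2.91% and the serum response element in 1.25%. These shares carry no test.

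Of 41 tested regulators of Pol II pausing and elongation, 26 were called higher and 3 lower (median 1.13); without 8 min number 1 it was 20 and 0, and without number 2 it was 16 and 0. Hexim1, the protein that holds P-TEFb inactive on 7SK RNA, went from 30.7 and 36.5 to 389 and 331 (3.38 ± 0.24; adjusted p = 0.000395). Mepce, which caps 7SK, went from 8.27 and 4.43 to 44.4 and 46.6 (2.71), and Larp7, which binds its end, from 44.6 and 43.6 to 138 and 168 (1.77). Mepce was under 10 in both 0 min libraries, so it passed the filter only through the 8 min libraries and its rise was nearly fixed. The cyclins of P-TEFb also rose, Ccnt1 from 152 and 195 to 577 and 649 (1.82) and Ccnt2 from 134 and 200 to 666 and 792 (2.15). The kinase gene Cdk9 had 96.3 and 87.8 at 0 min and 92.6 and 90.1 at 8 min (−0.01; adjusted p = 0.974), with overlapping groups. Polr2a, the largest Pol II subunit, overlapped too, with 2499 and 1917 against 1927 and 2020. The elongation factor Ell (2.69) and the initiation factor subunit Gtf2f1 (2.56) were called higher. Rn7sk, the 7SK RNA itself, which Pol III makes, had 11418 and 5144 at 0 min and 2668 and 3024 at 8 min (−1.43; adjusted p = 0.0295). That call was lost without 8 min number 1 (adjusted p = 0.316) or number 2 (0.259), and on the deposited scale the change was −0.40 (adjusted p = 0.670).

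Genes of splicing and of the m6A pathway gained signal. Of 36 tested splicing factors 26 were called higher and 1 lower (median 1.71; 21 and 0 without 8 min number 1, 19 and 0 without number 2). Srsf7, an SR protein, went from 109 and 72.5 to 1873 and 2263 (4.52 ± 0.28; adjusted p = 0.000338). Hnrnph1 went from 180 and 188 to 2024 and 2431 (3.58), Tra2b from 266 and 332 to 2906 and 3676 (3.45), and the splicing kinase Clk4 from 25.6 and 14.7 to 235 and 311 (3.73). Without 0 min number 2 it was 28 and 2. With all 4 libraries the member called lower was Srrm2 (−0.80), a call lost without 8 min number 1 or number 2 (adjusted p = 0.482 and 0.382). Of 21 m6A proteins 14 were called higher and 2 lower (median 1.31), and without 8 min number 1 or number 2 it was 10 and 6 higher and 0 lower, and without 0 min number 1 it was 15 and 4. Ythdc1, the nuclear m6A reader whose alleles are conditional here (chromosome 5, 86803980 to 86836659), went from 209 and 242 to 1219 and 1525 (2.59 ± 0.25; adjusted p = 0.000542). It had the highest change of the list. The demethylase gene Alkbh5 (1.88) and the methyltransferase gene Mettl16 (1.74) were also called higher. Fto, the other demethylase, was not called (−0.31; adjusted p = 0.267). Igf2bp1, which binds m6A mRNA, went from 822 and 926 to 364 and 366 (−1.26), a call lost without either 8 min library (adjusted p = 0.102 and 0.108).

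Of 24 S phase genes 18 were called higher and 1 lower (median 1.56; 15 and 13 higher without 8 min number 1 and number 2). Pcna, the DNA polymerase clamp, went from 47.2 and 38.9 to 493 and 504 (3.51), and the thymidylate synthase gene Tyms from 28.7 and 27.1 to 267 and 283 (3.25). Slbp, which binds the stem-loop of histone mRNA, went from 107 and 122 to 1867 and 2094 (4.10 ± 0.23; adjusted p = 0.000338). Eri1 (2.63) and Npat (2.25) were also called higher, and 4 of the 7 genes of histone mRNA processing were. Of 68 replication-dependent histone genes 11 were called higher and 34 lower (8 and 17 without 8 min number 1, 8 and 16 without number 2, 11 and 52 without 0 min number 2), with a median of −0.89, which was 0.14 on the deposited scale, where 16 were called higher and 0 lower. Hist1h4n (0.406 kb) had 899 and 674 at 0 min and 183 and 182 at 8 min (−2.09; adjusted p = 0.000954; −1.05 and adjusted p = 0.140 on the deposited scale). Hist1h2bc (annotated at 8.28 kb) rose from 338 and 210 to 2021 and 2526 (3.08), and Hist2h2be from 6.96 and 7.09 to 68.0 and 64.9 (3.07). Hist2h2be was under 10 in both 0 min libraries, so it passed the filter only through the 8 min libraries and its rise was nearly fixed. Near-identical histone genes can share reads, so each such value is uncertain. Of 20 mitotic genes 15 were called higher and 1 lower (median 1.18; 8 and 7 higher without 8 min number 1 and number 2), among them Cdk1 (2.65), Bub1 (2.34) and Aurka (2.24).

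**Figure D2:**
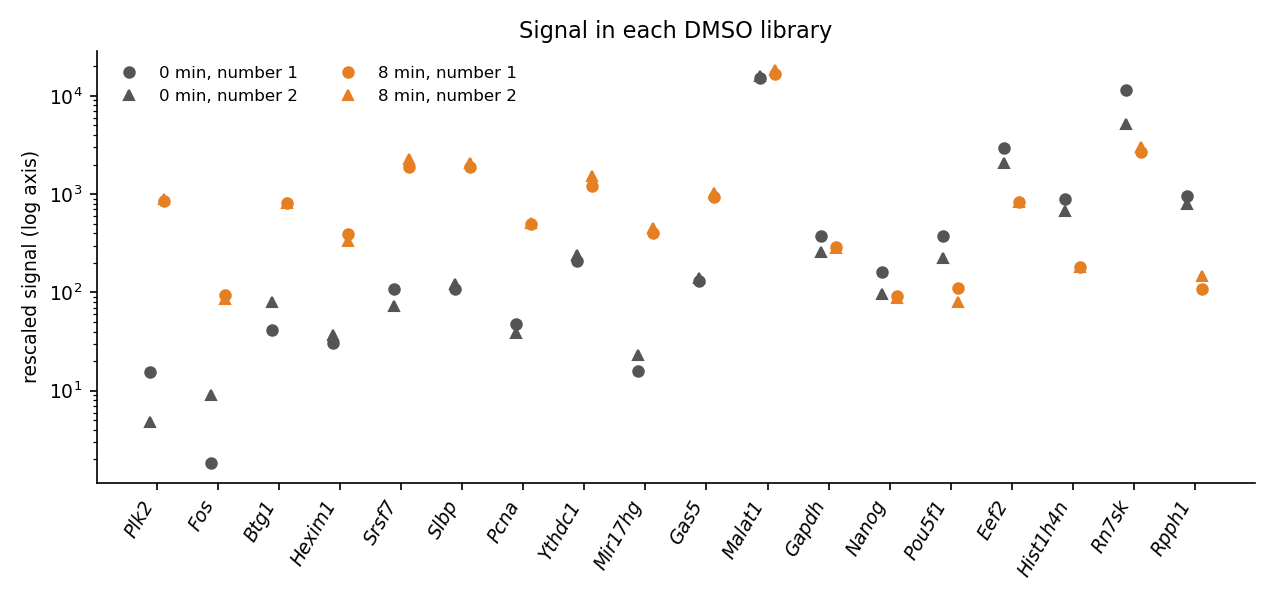
Rescaled signal (log axis) of 18 named features in each of the 4 DMSO libraries, 0 min in grey and 8 min in orange, number 1 as circles and number 2 as triangles. The 8 min values of Plk2, Fos, Hexim1, Srsf7, Slbp and Mir17hg lie above both 0 min values, Malat1 is at the same level at both times, and Eef2, Hist1h4n, Rn7sk and Rpph1 lie lower at 8 min on this scale.

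Several long noncoding RNAs that host small RNAs were called higher. Mir17hg, host of the oncogenic miR-17 cluster, went from 15.9 and 23.2 to 405 and 448 (4.40 ± 0.27; adjusted p = 0.000338). Rows of 5 hairpins of that cluster passed the filter and all were called higher. Mir18 had 0 and 0.975 at 0 min and 19.1 and 20.9 at 8 min (3.90; adjusted p = 0.000972), Mir19a 0.853 and 0 against 17.1 and 19.1 (3.81), and Mir92-1 1.31 and 1.68 against 27.5 and 28.4 (3.54). Mir20a (3.04) and Mir19b-1 (2.86) were the others. Mir18, Mir19a and Mir92-1 were under 10 in both 0 min libraries. They passed the filter only through the 8 min libraries, so their rise was nearly fixed. Hairpin rows count fragments of the primary transcript, not mature miRNA. Mir19b-1 and Mir92-1 overlap the annotated Mir17hg, so they may share its reads. The mature strands of these hairpins are shown for what the rising transcript encodes, from RefSeq (GRCm38.p6, chromosome 14, plus strand, hairpins from chr14:115043851-115043946 for Mir18 to chr14:115044427-115044506 for Mir92-1), with the seed (bases 2 to 8) in capitals.
mmu-miR-18a-5p: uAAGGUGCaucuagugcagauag
mmu-miR-20a-5p: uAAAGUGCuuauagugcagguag
mmu-miR-19a-3p: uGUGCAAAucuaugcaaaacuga
mmu-miR-19b-3p: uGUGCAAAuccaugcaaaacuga
mmu-miR-92a-3p: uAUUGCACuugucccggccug
The miR-19 strands share 1 seed, and the other 3 strands each have their own. Over all miRNA rows 18 of 36 tested were called higher and 9 lower (median 0.88; 15 and 6 without 8 min number 1, 13 and 5 without number 2). Dleu2, host of Mir15a and Mir16-1, went from 33.2 and 48.1 to 840 and 997 (4.48). Tug1 rose from 140 and 120 to 819 and 816 (2.65) and the paraspeckle RNA Neat1 from 214 and 309 to 785 and 797 (1.62). Malat1, the abundant RNA of nuclear speckles, had 15246 and 15935 at 0 min and 16841 and 18154 at 8 min (0.17; adjusted p = 0.768). Of 27 listed nuclear noncoding RNAs 9 were called higher and 9 lower (6 and 6 without 8 min number 1, 6 and 4 without number 2). Gm26917 had a change of −3.07 that was not called (adjusted p = 0.0983).

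Small nucleolar RNAs (snoRNAs), which sit in introns of host genes and guide modification of ribosomal RNA, were more often called higher than lower, as were host genes. Whether a snoRNA and its own host moved together was not tested. Of 61 tested snoRNA genes 39 were called higher and 4 lower (median 1.37; 28 and 26 higher without 8 min number 1 and number 2, and 7 lower without 0 min number 1). Relative to the median feature this median was 1.07, and with spike-in scaling it was 0.52 over 98 tested. How far the filter favoured rises in this class was not tested. Of 13 host genes 9 were called higher and 2 lower (median 1.59; 8 and 1 without 8 min number 1, 7 and 1 without number 2). Snhg8 went from 15.4 and 8.33 to 227 and 200 (4.11), and Snora24, which lies inside it (chromosome 3, 123507937 to 123508066), from 2.10 and 1.06 to 60.4 and 43.7 (4.37), so these rows may share reads. Snora24 was under 10 in both 0 min libraries, so it passed the filter only through the 8 min libraries and its rise was nearly fixed. Gas5 went from 132 and 139 to 939 and 1016 (2.84) and Snhg5 rose by 3.13 on the log2 scale. Snhg14, a host annotated at 1177 kb, went the other way, from 1256 and 1828 to 270 and 333 (−2.33; adjusted p = 0.00105), and was not called on the deposited scale (−1.30; adjusted p = 0.0727).

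Of 41 tested snRNA genes 0 were called higher and 34 lower, with a median of −1.86 that was −0.85 on the deposited scale (4 called lower) and 1.01 on the spike-in scale. Without 8 min number 1 it was 32 lower and without number 2 it was 31. Rpph1, the RNA of RNase P, had 955 and 793 at 0 min and 108 and 146 at 8 min (−2.79 ± 0.26; adjusted p = 0.000518), and was still called on the deposited scale (−1.75; adjusted p = 0.00992). Rn7s1, a gene for the RNA of the signal recognition particle, had 8307 and 5964 against 1017 and 1248 (−2.64, limma adjusted p = 0.00107). The structural type 7SLRNA, another entry for this RNA, had 16816 and 12012 against 2227 and 2702 (−2.53). Its change was −2.39 without 8 min number 1 and −2.67 without number 2, and its call was lost each time. Of 1274 pseudogenes, many of them copies of mRNAs, 41 were called higher and 1015 lower, with a median of −1.44 that was −0.41 on the deposited scale (70 higher, 48 lower) and 1.35 on the spike-in scale. Without 8 min number 1 it was 597 lower and without number 2 it was 430. Reads shared with parent genes leave each pseudogene's value uncertain. Near-identical snRNA genes can share reads too, so their rows may not be separate observations.

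**Figure D3:**
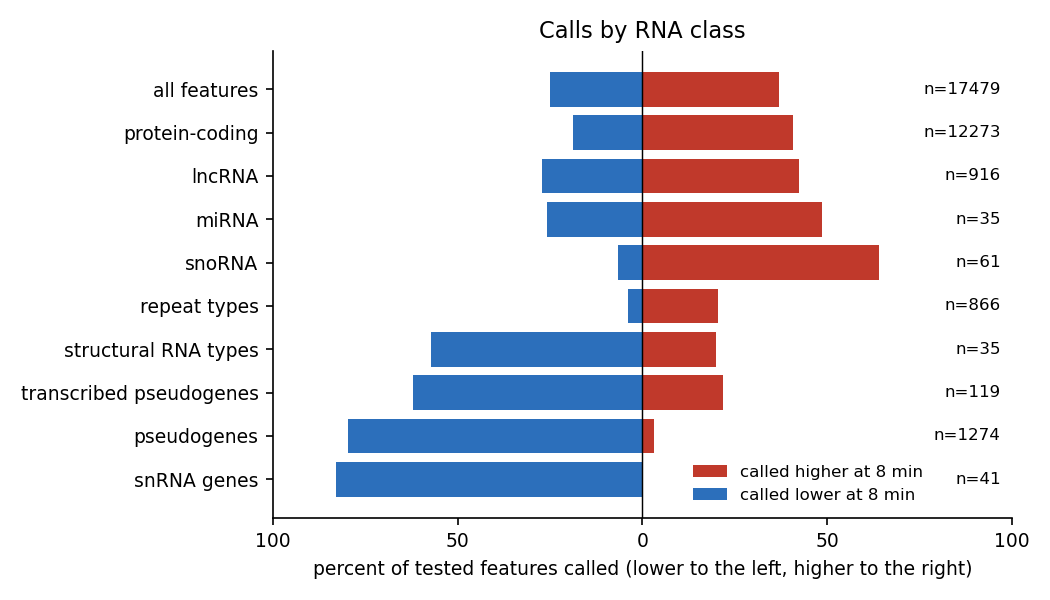
Percent of the tested features of each RNA class called higher (red, to the right) and lower (blue, to the left) at 8 min, with the number tested at the right edge. Calls of snoRNA genes are mostly higher and those of pseudogenes and snRNA genes mostly lower on the median-ratio scale, and on the spike-in scale no feature was called lower.

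Several protein-coding families differed in the balance of calls. For comparison, 37.0% of all features were called higher and 24.9% lower, and 40.7% and 18.7% of protein-coding genes. Translation factors were near the protein-coding shares, and the share of ribosomal protein genes called lower was near that over all features. Of 78 nuclear genes of oxidative phosphorylation 50 were called higher and 4 lower (median 1.18; 34 and 33 higher without 8 min number 1 and number 2, and 65 and 7 without 0 min number 1). Ndufa4 went from 45.5 and 37.8 to 482 and 560 (3.61), Cox7a2 from 26.4 and 29.8 to 256 and 335 (3.34), and the lowest member was the pseudogene Uqcrh-ps2 (−2.31). Of 91 ribosomal protein genes 15 were called higher and 26 lower, with a median of −0.22 that was 0.81 on the deposited scale (31 higher, 0 lower); without 8 min number 1 it was 7 and 11, and without number 2 it was 7 and 9. Without 0 min number 1 it was 29 and 36, and without 0 min number 2 it was 28 and 41. Rps15 had 566 and 253 against 109 and 80.5 (adjusted p = 0.00562), and Rps12 rose from 99.8 and 97.1 to 431 and 461 (2.17). Of 22 translation factors 8 were called higher and 4 lower (6 and 5 higher and 0 lower without 8 min number 1 and number 2, 10 and 7 without either 0 min library). Eef2 had 2978 and 2094 at 0 min and 826 and 829 at 8 min (−1.59; adjusted p = 0.00382), lost without either 8 min library (adjusted p = 0.0846 and 0.0913). Pabpc1 rose from 956 and 719 to 3430 and 4205 (2.19). Of 25 genes of glycolysis and housekeeping 3 were called higher and 8 lower, with a median of −0.34 that was 0.70 on the deposited scale; without 8 min number 1 it was 2 and 2, and without number 2 it was 2 and 1. Without 0 min number 1 it was 6 and 10, and without 0 min number 2 it was 3 and 18. Gapdh had 378 and 257 against 287 and 282 (adjusted p = 0.682), whereas Hprt rose from 86.2 and 80.3 to 426 and 483 (2.43). Of 305 zinc finger genes with a Zfp number 188 were called higher and 20 lower (median 1.26; 129 and 8 without 8 min number 1, 123 and 7 without number 2, 214 and 37 without 0 min number 1, 230 and 32 without 0 min number 2), led by Zfp39 (5.15) and Zfp959 (4.80). Of 31 ribosome biogenesis genes 16 were called higher and 1 lower (median 0.80; 9 and 8 higher and 0 lower without 8 min number 1 and number 2, 19 and 3 without 0 min number 1, 17 and 5 without 0 min number 2), with Taf1b (2.98) and Nop14 (2.79) among them.

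Stress genes were called in both directions at 8 min. Over all features 37.0% were called higher, and 40.7% of protein-coding genes. With all 4 libraries the integrated stress response list was near these shares, and the p53 and heat shock lists were above them. Of 33 p53 targets 21 were called higher and 1 lower (median 1.53; 18 and 16 higher without 8 min number 1 and number 2, and 2 lower without either 0 min library). Pmaip1, a BH3-only death gene, went from 80.8 and 75.1 to 506 and 623 (2.83), and Eda2r, a receptor of the TNF family, from 71.7 and 97.7 to 661 and 816 (3.12). Plk2 is on this list and on the immediate early list. Mdm2, which degrades p53, was not called, with 1519 and 3006 against 2732 and 3613 (adjusted p = 0.262) and overlapping groups. Rrm2b was called lower (−1.45), lost without 8 min number 2 (adjusted p = 0.0600). Of 25 integrated stress response genes 11 were called higher and 2 lower (median 0.73), and the same counts without either 8 min library, but 19 and 2 (median 1.19) without 0 min number 1 and 15 and 6 (median 0.52) without 0 min number 2. Sesn2 went from 64.6 and 36.7 to 529 and 543 (3.43) and Ppp1r15a, which restores translation, from 7.61 and 10.1 to 89.6 and 79.6 (3.13). Of 25 heat shock genes 14 were called higher and 2 lower (median 0.93; 7 and 1 without either 8 min library, 15 and 5 without 0 min number 2), with Dnaja1 at 91.7 and 95.7 against 744 and 873 (3.09) and the heme oxygenase gene Hmox1 at 62.3 and 56.3 against 479 and 464 (2.97).

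Of 32 naive pluripotency genes 6 were called higher and 9 lower, with a median of −0.38 that was 0.66 on the deposited scale (10 higher, 0 lower); without 8 min number 1 it was 1 and 4, without number 2 it was 0 and 3, and without 0 min number 2 it was 10 and 17. The share called lower was close to that over all features (24.9%). Pou5f1 had 379 and 226 at 0 min and 110 and 79.6 at 8 min (−1.63 ± 0.32; adjusted p = 0.00538; −0.60 and adjusted p = 0.402 on the deposited scale). Dppa5a had 769 and 327 against 133 and 99.5 (−2.11). Sox2 (−0.59; adjusted p = 0.0584) and Nanog (−0.47; adjusted p = 0.207) were not called. Zfp281 was called higher (1.26), lost without 8 min number 2 (adjusted p = 0.111). Of 9 formative and neuroectoderm genes 0 were called higher and 4 lower (3 and 1 lower without 8 min number 1 and number 2, 1 higher and 4 lower without 0 min number 2), and Nes had 357 and 271 against 106 and 95.7 (−1.62; −0.59 on the deposited scale). Of 9 primitive endoderm genes 0 were called higher and 6 lower, but 1 without either 8 min library, and of 5 trophoblast genes 0 and 3 (0 and 1 without number 1, 0 and 2 without number 2). Of 6 fibroblast genes 1 was called higher and 2 lower (0 and 0 without number 1, 0 and 1 without number 2, 2 and 2 without 0 min number 1, 1 and 4 without 0 min number 2), and of 4 mesoderm genes 1 and 2 (1 and 0, 0 and 0). The medians of the neuroectoderm, primitive endoderm and fibroblast lists were −0.69, −0.98 and −0.34, and on the deposited scale 0.29, 0.11 and 0.93. Of the 30 listed genes of the early embryo's totipotent-like state in the table, 2 passed the filter: Eif1a (1.06) and Arg2 (−1.57), the first lost without either 8 min library (adjusted p = 0.0847 and 0.207) and the second without number 2 (0.148).

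**Figure D4:**
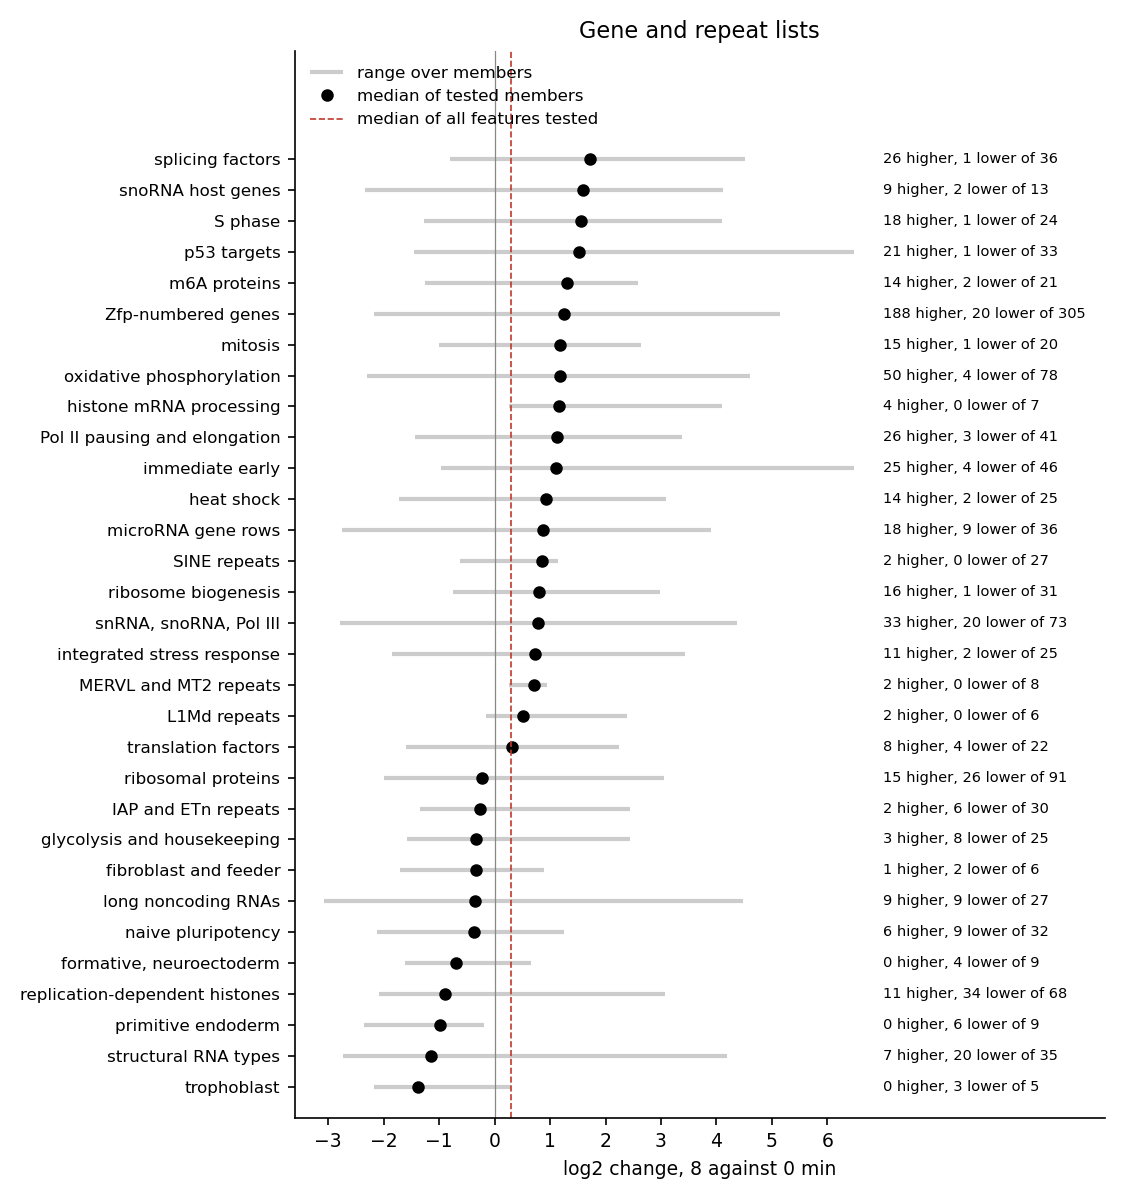
Median (points) and range (grey bars) of the log2 change of tested members in each gene or repeat list with at least 5 tested, with counts of calls at the right and the median of all 17479 features as a red dashed line at 0.30. Splicing factors, snoRNA hosts and S phase genes have the highest medians and trophoblast genes and structural RNA types the lowest, and apart from the trophoblast list the medians below 0 turn positive on the deposited scale.

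Predicted gene names aside, called genes with a mean signal of at least 100 and no overlap between 0 min and 8 min values were ranked by their fall. The 12 largest falls on the median-ratio scale were in protein-coding genes and RNase P RNAs. The repeat type FordPrefect, described with the repeats, also fell by over 3 on the log2 scale. Cpe, which encodes carboxypeptidase E of the secretory granule (chromosome 8, 64592542 to 64693109), had 508 and 1170 at 0 min and 72.1 and 74.2 at 8 min (−3.38 ± 0.39; adjusted p = 0.000909). The collectin gene Colec11 had 407 and 840 against 60.9 and 55.0 (−3.31), and its neighbour Allc 385 and 796 against 63.5 and 98.8 (−2.79). Ikzf1, a lymphoid zinc finger factor, had 206 and 361 against 25.8 and 33.5 (−3.17). In each of these 4 genes the number 2 library was the higher at 0 min, and both 0 min values lay above both 8 min values. The other 8 of the rule were Nim1k (−3.19), Fstl4 (−2.97), Rprl3, a second RNase P RNA gene (−2.90), Rpph1, Cyp4f18 (−2.73), Akap5 (−2.71), Slc17a5 (−2.68) and Jakmip3 (−2.68). On the deposited scale Cpe (−2.35; adjusted p = 0.000349), Colec11 (−2.29), Nim1k (−2.17), Ikzf1 (−2.15) and Rprl3 (−1.87) were among those still called lower, as was Rpph1.

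The change depended on gene length, with a maximum in genes of middle length. Over 3988 protein-coding genes of 10 to 30 kb the median log2 change was 0.87, with 2023 called higher and 551 lower (2385 and 871 without 0 min number 2). Over 1911 genes of 3 to 10 kb it was 0.75, over 3790 of 30 to 100 kb 0.42, over 1579 of 100 to 300 kb −0.21, and over 517 above 300 kb −0.43 (98 higher, 176 lower; 124 and 300 without 0 min number 1, 168 and 211 without 0 min number 2). The 488 genes under 3 kb had −0.18. Below 0, these medians turn positive on the deposited scale (0.90 under 3 kb, 0.83 and 0.61 for the 2 longest classes), while the order of the classes was kept. The median of the 10 to 30 kb class exceeded that above 300 kb by 1.31 (0.917 between the number 1 libraries, 1.58 between the number 2 libraries, although the labels do not say that a number pairs them; SD 0.469, n = 2), by 2.29 with a filter of 100 and by 0.773 with no filter. Without 0 min number 2 it was 0.945. In finer classes, chosen after the data were seen, the median rose from −0.60 under 2 kb to 0.99 at 15 to 20 kb and fell to −0.36 above 500 kb. Per kb of gene the median signal of the 10 to 30 kb class was 2.04 and 1.92 at 0 min and 3.88 and 3.97 at 8 min. Above 300 kb it was 0.119 and 0.167 against 0.119 and 0.121, so the groups overlapped. Among long noncoding RNAs the median went from 1.55 under 3 kb (101 genes) to 0.01 at 100 to 300 kb (58 genes) and was 0.20 above 300 kb (15 genes).

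**Figure D5:**
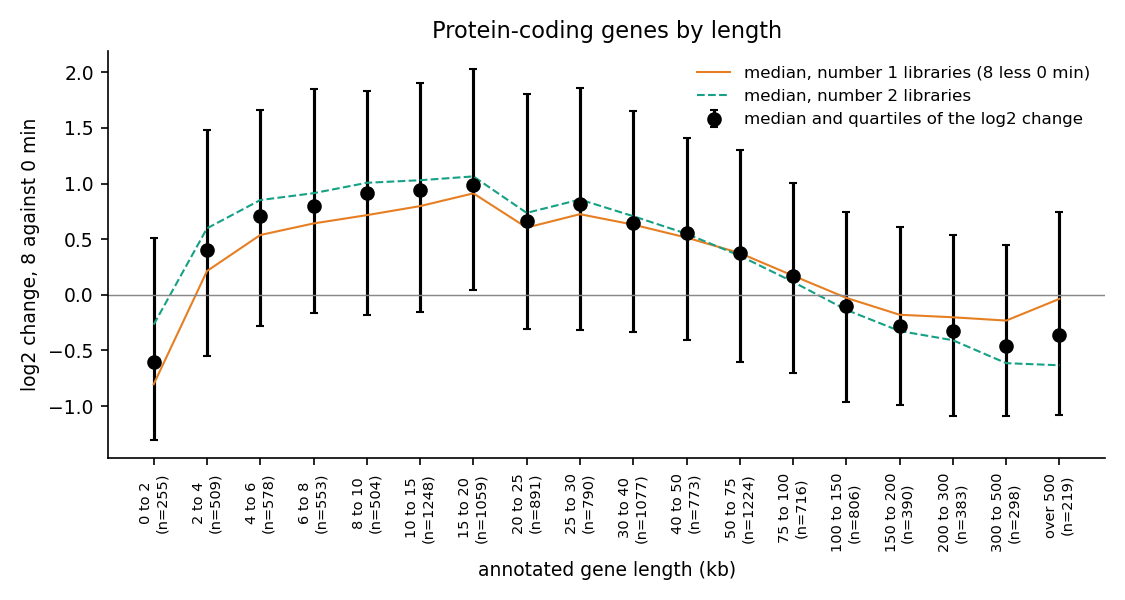
Log2 change of protein-coding genes by annotated length in 18 classes, with the median (points), quartiles (bars) and the medians of the number 1 and number 2 libraries taken alone (lines). Medians peak at 15 to 20 kb in both, are below 0 under 2 kb and above 100 kb on the median-ratio scale, and lie above 0 for the long classes on the deposited scale.

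Some very long genes rose against their class. Csmd3, a gene of 1212 kb for a large membrane protein, went from 29.9 and 33.7 to 333 and 276 (3.21 ± 0.24; adjusted p = 0.000399). The calcium channel gene Cacna1d (451 kb) went from 14.0 and 36.7 to 255 and 307 (3.56). Focad (316 kb, 2.27) and Fam189a1 (400.4 kb, 1.95) were also among the 5 of the rule.

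Repeats held 18.7% and 23.8% of reads at 0 min and 31.3% and 31.2% at 8 min, but over reads without Gm26917, whose own share fell, they held 25.8% and 32.0% against 32.5% and 32.4%. Of 866 tested repeat types 178 (20.6%) were called higher and 35 (4.04%) lower (median 0.41). Both shares were under those over all features (37.0% and 24.9%). Without 8 min number 1 or number 2 it was 51 and 40 higher and 5 lower each time. Without 0 min number 1 it was 245 and 176 (median 0.08), and without 0 min number 2 it was 628 and 52 (median 0.78), so these counts depend on the library. The L1 family L1Md_Gf, a young LINE, went from 426 and 533 to 2784 and 2252 (2.39), and the endogenous retrovirus MMERVK10C-int from 1512 and 2570 to 10337 and 11162 (2.45). RLTR13A2, a long terminal repeat, went from 39.2 and 56.0 to 512 and 569 (3.50). L1Md_T had 9794 and 13531 against 40092 and 32478 (1.65), a call lost without either 8 min library (adjusted p = 0.459 and 0.399). The retrovirus MERVL-int, a marker of totipotent-like cells, had 1310 and 2199 against 1946 and 2139 (adjusted p = 0.512), but was called higher without 0 min number 2 (adjusted p = 0.00155). Of 8 MERVL and MT2 types 2 were called higher (0 without either 8 min library, 4 and 8 without 0 min number 1 and number 2), and of 6 L1Md types 2 (1 without either 8 min library, 2 and 1 lower without 0 min number 1, 4 without 0 min number 2). Of 27 SINE types 2 were called higher (0 without either 8 min library, 13 without 0 min number 1, 25 and 1 lower without 0 min number 2). In 25 of them both 8 min values lay above both 0 min values, against 48.9% of all features. Of 30 IAP and ETn types 2 were called higher and 6 lower (1 and 0 without either 8 min library, 2 and 19 without 0 min number 1, 9 and 9 without 0 min number 2). The DNA transposon FordPrefect had 138928 and 142313 at 0 min and 14799 and 15162 at 8 min (−3.23; adjusted p = 0.00560), lost without 8 min number 1 (adjusted p = 0.375) or number 2 (0.393). Of 35 structural RNA types 7 were called higher and 20 lower (4 and 9 without 8 min number 1, 4 and 7 without number 2), with a median of −1.15 that was 0.01 on the deposited scale. The type SSU-rRNA_Hsa had 5361 and 5782 against 853 and 820.0 (−2.73), and 5S rose from 48.3 and 77.8 to 184 and 175 (1.53). Some transfer RNA types rose too. Those named next were under 10 in both 0 min libraries and passed the filter only through the 8 min libraries, so their rise was nearly fixed. The type tRNA-Gln-CAA went from 1.25 and 0.798 to 35.2 and 36.6 (4.20; adjusted p = 0.000447), tRNA-Leu-TTA from 2.17 and 0.443 to 19.1 and 27.6 (3.49), and tRNA-Thr-ACG_ from 0.263 and 4.17 to 15.3 and 15.9 (adjusted p = 0.0120). By contrast, tRNA-Gly-GGY had 26.9 and 23.1 against 5.02 and 5.35 (−2.07, with −1.12 and limma adjusted p = 0.0857 on the deposited scale). It passed the filter only through the 0 min libraries, so its fall was nearly fixed as well.

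The release was also measured in the cells given 4OHT. Over the features called in the DMSO libraries and measured in all 8, 10728 of 10830 changed with the same sign in the 4OHT libraries, and the 2 log2 changes correlated at 0.918 across features, which share scaling but no library. The difference of the releases, 4OHT less DMSO, was called for 0 of 20534 features in either direction by limma (smallest adjusted p = 0.317), with 532 higher and 663 lower at an unadjusted p under 0.05. edgeR on recovered reads also called 0 and 0, and DESeq2 called 33 higher and 103 lower. Plk2 rose by 5.29 with 4OHT (adjusted p of the difference = 0.954), Slbp by 3.55 (0.931), Hexim1 by 3.50 and Mir17hg by 4.69, and none of these differences was called. Ythdc1 rose by 1.78 with 4OHT against 2.59 with DMSO (adjusted p of the difference = 0.923). Egr1 changed by −0.36 with 4OHT against 1.39 with DMSO (0.632). A p that misses the threshold does not show that the releases were alike.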

How the data were processed

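4sU RNA was purified from 2 libraries at 0 min and 2 at 8 min after DRB washout, all with DMSO. Per the submitters' processing notes, STAR 2.7, bcl2fastq and Bowtie2 were used with mm10; how reads with several matches or strand were handled is not given in the sources used here. The deposited table holds a signal, in which all values are whole reads divided by 1 divisor per library (100% whole within 0.01), so reads were recovered. Columns carry no sample name beyond group and number, so they were mapped to groups only.

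Signals were rescaled by median ratio over all rows but spike-ins, features with at least 10 in 2 of 4 libraries were kept, and log2(signal + 1) was fitted in R 4.3.3 by limma 3.58.1 (moderated variances with a trend on mean signal, 2 residual degrees of freedom, Benjamini-Hochberg adjustment over all 17479 features, threshold 0.05). Every p-value is from this fit unless another tool is named. Fold changes on this scale understate those of low features. A feature under 10 in both libraries of 1 time could pass the filter only through the other time, which nearly fixed the direction of its change. Alternatives were edgeR 4.0.16 and DESeq2 1.42.0 on recovered reads, other scalings, filters and pseudocounts, a block and left-out libraries. The fit was tested on simulated data.

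Of the table's gene rows, 27329 matched RefSeq symbols and 628 synonyms; class and length come from RefSeq (GRCm38.p6), and length is the annotated span. Members and lists were chosen with earlier results of these data known. Text names follow a rule: the 12 largest rises and falls with a mean of at least 100 and no overlap, the 3 largest under any name, the 5 largest repeat and structural types each way, up to 3 members of smallest p and the extremes of each list, the 5 largest rises above 300 kb, and a fixed set. The text gives values for a selection of these, and some are not reported here. Mepce, Larp7, Ccnt1, Ccnt2, Clk4, Fto, Rn7s1, Mdm2, Mir19a, Mir20a and Mir19b-1 were chosen after their values were seen. With 2 libraries a group, precision is limited by their number.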

Additional observations from a re-analysis of the deposited data

How the results depend on the processing

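The count of features called higher stayed within 1.5 times the main 6474 except with a filter of 100 (3175, and 1462 lower, among fewer features tested) and without single 8 min libraries; leaving out each library gave 3830 to 8384 higher and 1895 to 5947 lower. The count called lower was 365 with deposited scaling and 0 with spike-in scaling; the spike-in shares of libraries of a group differed, and the cause was not tested. With the column number as a replicate block, 6859 were called higher and 4740 lower. Deviations of same-numbered DMSO libraries correlated at 0.209, and of DMSO and 4OHT libraries at 0.487 (0 min) and 0.0909 (8 min), not all over 0.1, and the labels do not say what a number marks, so the numbers were not taken to pair the libraries. At 0 min the number 2 libraries of both treatments had the higher spike-in share (0.618% and 0.668% against 0.120% and 0.101%). The difference between 4OHT and DMSO gave 33 higher and 103 lower by DESeq2, 1 and 4 with the replicate block, and 0 and 0 without each library. The length difference was 2.29 with a filter of 100 and 0.773 with no filter. Among named features 33 and 37 calls were lost without 8 min number 1 and number 2.

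Relative to the median feature, features near it changed side, none of them called except MERVL-int without 0 min number 2 and Tfap2c on the deposited scale. With all 8 libraries these were Zfp473 (0.059), MERVL-int (0.071) and Ier2 (0.017), and with no filter Zfp473 (0.20), MERVL-int (0.21), Malat1 (0.11) and Ier2 (0.16). With a filter of 100 they were L1Md_A (−0.10) and Junb (−0.11), with a pseudocount of 5 Tfap2c (−0.021), with a mean filter of 10 MERVL-int (0.00024), with deposited scaling Tfap2c (−0.093), with spike-in scaling Tfap2c (−0.14), MERVL-int (0.093) and Ier2 (0.030), and with quantile normalization MERVL-int (0.49) and Polr2a (0.0091). Without 1 library the values ranged from −0.14 to 0.027 for Zfp473, −0.16 to 0.17 for Tfap2c, −0.37 to 0.31 for MERVL-int and −0.21 to 0.023 for Ier2. The causes were not tested. The class by number of exons was not run. Features under the filter of 10 were not tested, which is where depth limits these results.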
